A study of Mus musculus with 10 samples.

Results

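The genes described here are 10 genes known for the endothelium of the liver sinusoids: Stab1, Stab2, Lyve1, Clec4g, Kdr, Tek, Pecam1, Cd34, Oit3 and Dnase1l3. They were picked by gene symbol as known markers, with earlier results of these data known. Not all are particular to sinusoids, as Pecam1 and Cd34 belong to endothelium in general. All 10 were measured, with 11 probes in all, out of 16383 genes on the arrays. The study profiled whole liver of 6 mice heterozygous for a knockout of Tgfbr2, a receptor that TGF-beta ligands bind, and of 4 wild-type (WT) littermates. All mice, and the WT mice of the pool, ate chow. The Tgfbr2+/- titles name males and the WT titles give no sex, and the labels used here name neither age nor strain. Each library is a 2-colour array of 1 liver set against a common pool of liver RNA from 6 WT mice. Values are log2 ratios, likely of liver over pool, so 0 is the level of the pool. The labels do not settle that direction, and every higher or lower rests on it. Differences are Tgfbr2+/- minus WT, in log2 units. These are ratios within each probe, so they do not show how strongly a gene is expressed, and the levels of different genes cannot be ranked.

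Liver sinusoidal endothelial cells line the smallest blood vessels of the liver. They have open pores and no continuous basement membrane, and they clear hyaluronan, modified proteins and other waste from blood through scavenger receptors. When they lose this character, in a change called capillarisation, they come to resemble ordinary capillary endothelium. The arrays read RNA of whole tissue, so fewer endothelial cells and less RNA per cell cannot be told apart. As the values are ratios to a pool of the same tissue, they cannot show whether these markers are present or absent in liver.

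Some libraries need care. On probe 10024401828 Tgfbr2 itself was lower in 5 of the 6 Tgfbr2+/- libraries than in every WT library. It read 0.20 in the library labelled Tgfbr2+/- replicate 4, inside the WT range of -0.29 to 0.64, so that library goes against its label on this probe. The second Tgfbr2 probe differed by -0.07 ± 0.09 (SE). As the direction of the ratios was inferred partly from Tgfbr2, its being the lower is in part assumed. WT replicate 1 and Tgfbr2+/- replicate 5 had a Pearson r of -0.33 over all probes, so the direction of either column is not settled. Results are therefore also given with the sign of each turned. Columns were centred near 0, and the SD of their log2 ratios ranged from 0.13 to 0.24.

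None of the 10 genes passed the test between the groups. Of their 100 values 89 were within 0.25 of 0, and the farthest was 0.53 away. Stab1, Stab2, Pecam1 and Tek stayed within 0.25 in every liver, and the other 6 genes were beyond it in at least 1 liver. Differences were positive for 5 genes and negative for 5, where 52.6% of all genes had a positive one, with a median of 0.01 beside 0.004 over all genes. Their median absolute difference was 0.06, against 0.05 over all genes. By limma 0 of the 10 passed an adjusted p of 0.05 over all genes, with adjusted p from 0.621 to 0.999. Among all 16383 genes 0 passed, or 0.0%. At an unadjusted p under 0.05 there was 1 of the 10 genes, Clec4g, and 908 of all genes, or 5.54%. The 95% intervals of all 10 differences lay within 0.5 of 0, and those of 5 genes lay within 0.25. With all columns signed as deposited, a change of 1.41-fold or more in the group mean thus lay outside the interval of every member. This is not shown for turned columns, where Cd34 was 0.24 ± 0.13 (SE) with WT replicate 1 turned. The groups did not overlap for 2 of the 10 genes, Clec4g (higher) and Stab2 (lower), where 1.08% of all genes had groups that did not overlap, 0.726% higher and 0.354% lower. With the sign of Tgfbr2+/- replicate 5 turned this held for 1 of the 10, Stab2, and with that of WT replicate 1 turned for 0. The shares over all genes are for columns as deposited, and none is given for turned columns, so these counts have no background beside them.

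**Figure D1:**
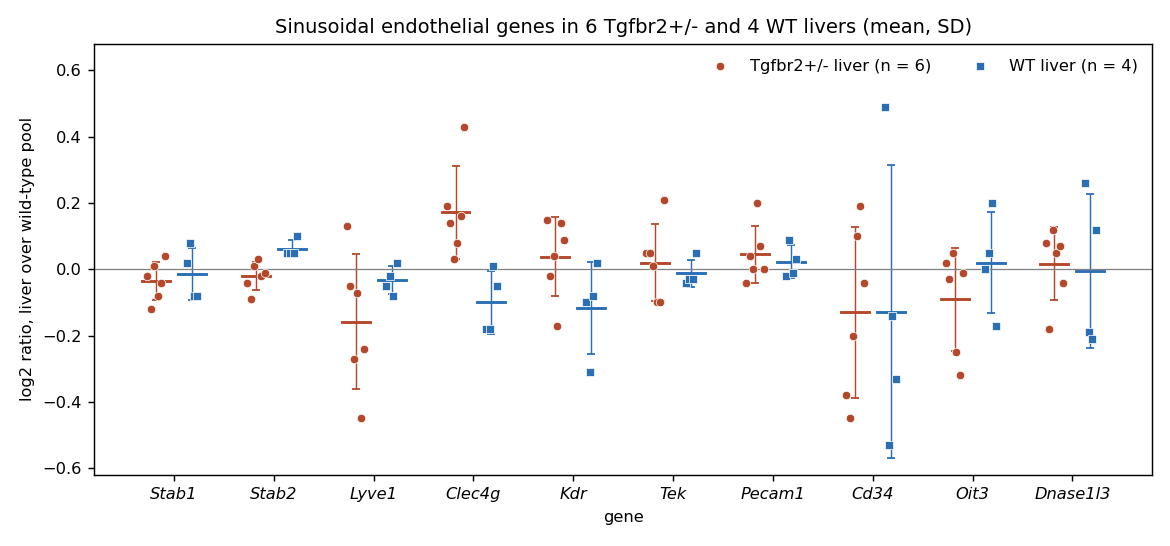
Log2 ratio of liver over WT pool (vertical axis) for the 10 sinusoidal endothelial genes (horizontal axis), with a point for each library, a thick line for the group mean and thin bars for the SD. Tgfbr2+/- livers (n = 6) stand left of WT livers (n = 4), and the groups are apart only for Clec4g and Stab2, while Cd34 has the widest spread.

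Clec4g, a C-type lectin receptor of sinusoidal endothelium also called LSECtin, had the largest difference of the 10 and did not pass. In Tgfbr2+/- replicates 1 to 6 it read 0.19, 0.14, 0.03, 0.08, 0.16 and 0.43, against -0.18, -0.18, 0.01 and -0.05 in WT replicates 1 to 4. All 6 Tgfbr2+/- livers thus lay above all 4 WT livers, although Tgfbr2+/- replicate 3 and WT replicate 3 almost met. The mean was 0.17 ± 0.14 in Tgfbr2+/- livers (SD, n = 6) and -0.10 ± 0.10 in WT livers (SD, n = 4). The difference was 0.27 ± 0.08 (SE), or 1.21-fold, with a 95% interval of 0.10 to 0.44 (limma adjusted p = 0.621). The exact two-sided permutation p was 0.00952, the smallest that 6 against 4 livers can give. The difference was 0.29 without Tgfbr2+/- replicate 4, 0.27 without Tgfbr2+/- replicate 5 and 0.25 without WT replicate 1. Turning the sign of WT replicate 1 gave 0.18 ± 0.09, turning Tgfbr2+/- replicate 5 gave 0.22 ± 0.10, and in each case the groups overlapped.

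Kdr is the main signalling receptor for the growth factor VEGF on endothelial cells. It leaned the same way as Clec4g without separating the groups. Tgfbr2+/- livers had a lowest value of -0.17, a median of 0.06 and a highest value of 0.15, and the WT livers read -0.10, -0.31, -0.08 and 0.02. Of the 6 Tgfbr2+/- livers 4 lay above all WT livers. The difference was 0.15 ± 0.08 (SE, 95% interval -0.02 to 0.32, limma adjusted p = 0.917). WT replicate 2 was the lowest liver of all, and without it the difference was 0.09. Tek, or Tie2, is the receptor for the angiopoietins, which steady and remodel vessels. Its Tgfbr2+/- values ran from -0.10 to 0.21 with a median of 0.03, around the WT values of -0.04, -0.03, -0.03 and 0.05. The difference was 0.04 ± 0.06 (SE, limma adjusted p = 0.955), and it was -0.001 without Tgfbr2+/- replicate 6, the highest liver.

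Stab1 and Stab2 encode stabilin-1 and stabilin-2, large scavenger receptors of sinusoidal endothelium, of which stabilin-2 clears hyaluronan from blood. Stab1 hardly differed between the groups. It ran from -0.12 to 0.04 in Tgfbr2+/- livers with a median of -0.03, and read 0.02, 0.08, -0.08 and -0.08 in WT livers. Its difference was -0.02 ± 0.05 (SE, 95% interval -0.13 to 0.09, limma adjusted p = 0.979). Stab1 is also made by some macrophages.

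Stab2 was measured by a pair of probes that did not agree. On probe 10024412523 the Tgfbr2+/- livers ranged from -0.21 to 0.02 with a median of -0.03, and the WT livers read 0.23, 0.06, 0.06 and 0.21. All Tgfbr2+/- livers lay below all WT livers on this probe, as did 0.947% of single probes in either direction. The difference was -0.19 ± 0.06 (SE, 95% interval -0.32 to -0.06, limma adjusted p over all probes = 0.799, exact permutation p = 0.00952). On this probe the WT mean was 0.14 ± 0.045 (SE) against the WT pool (limma unadjusted p = 0.0104, not passing after adjustment). The Tgfbr2+/- mean was -0.051 ± 0.037 (SE, limma unadjusted p = 0.198), so the WT livers lay farther from the pool. On probe 10024409050 the Tgfbr2+/- livers ranged from -0.03 to 0.03 with a median of 0.02, inside the WT range of -0.12 to 0.05, and the difference was 0.02 ± 0.04 (SE). Averaged per gene, Stab2 read -0.04, -0.09, 0.01, 0.03, -0.02 and -0.01 in Tgfbr2+/- replicates 1 to 6, against 0.05, 0.05, 0.05 and 0.10 in WT replicates 1 to 4. The groups were apart by little. The difference was -0.08 ± 0.04 (SE, 95% interval -0.169 to 0.001, limma adjusted p = 0.913, exact permutation p = 0.00952). The separation of the groups for Stab2 therefore comes from 1 of its probes. The labels do not place the probes on the transcript. With the sign of WT replicate 1 turned the per-gene difference was -0.06 ± 0.04 and the groups overlapped.

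**Figure D2:**
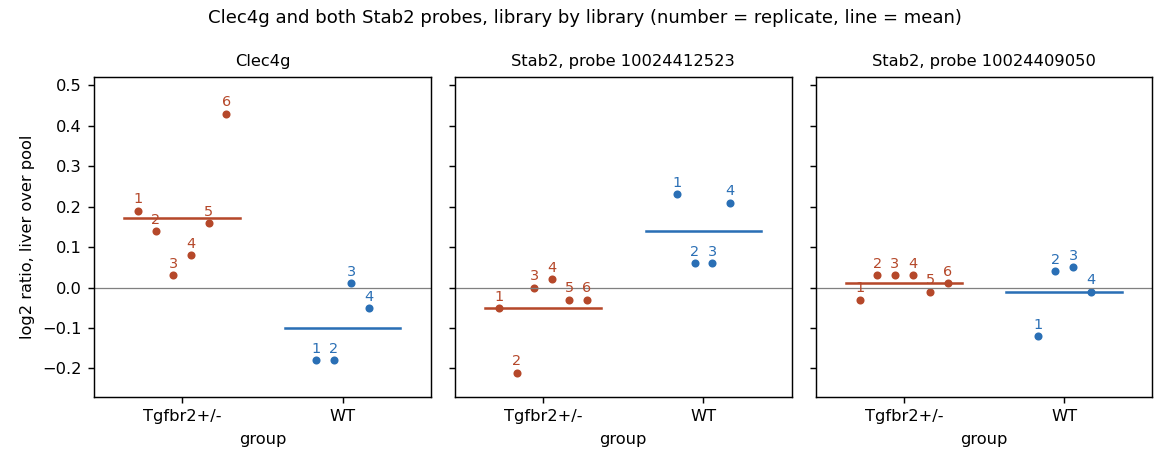
Log2 ratio of liver over WT pool (vertical axis) for Clec4g and each Stab2 probe, in Tgfbr2+/- and WT livers (horizontal axis). Numbers are replicates and lines are group means, and the groups are apart for Clec4g and for Stab2 probe 10024412523 but share their range on Stab2 probe 10024409050.

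The promoters of Clec4g and Stab2 are shown because these were the members whose groups did not overlap. The RefSeq promoter table (GRCm38.p6) matched 6 of the 10 genes, namely Clec4g, Stab2, Kdr, Tek, Stab1 and Cd34. Each sequence is the 250 bases before the start that the promoter table gives, on the strand of the gene. That start can lie inside the listed span of the gene. The span of Clec4g ends at 3720695 and that of Stab2 at 87008038, so part of each window shown lies within the gene. Capitals mark the motifs searched on either strand, which were AGGAAG for ETS factors and CAGAC for SMAD factors. The motif of GATA factors, AGATAA, was searched too and was found in none of the 6 windows. ETS and GATA factors are known to drive endothelial genes, and SMAD proteins carry signals of the TGF-beta receptors. Searches covered overlapping matches.

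Clec4g, chr8:3720652-3720901, minus strand: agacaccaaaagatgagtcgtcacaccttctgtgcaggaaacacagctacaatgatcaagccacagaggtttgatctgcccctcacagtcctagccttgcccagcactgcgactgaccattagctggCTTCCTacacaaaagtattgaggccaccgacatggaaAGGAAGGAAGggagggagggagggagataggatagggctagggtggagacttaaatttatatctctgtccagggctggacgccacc

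Stab2, chr10:87007943-87008192, minus strand: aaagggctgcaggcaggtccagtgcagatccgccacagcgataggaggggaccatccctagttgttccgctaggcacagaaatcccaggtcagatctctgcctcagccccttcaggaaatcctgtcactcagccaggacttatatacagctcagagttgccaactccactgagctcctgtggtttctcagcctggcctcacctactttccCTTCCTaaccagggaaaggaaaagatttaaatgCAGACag

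Offsets count from the start given for each window. The Clec4g window held 3 ETS motifs, starting at -123, -86 and -82, the last 2 of them overlapping, and 0 SMAD motifs. That of Stab2 held 1 ETS motif at -40 and 1 SMAD motif at -7, each inside the listed span of the gene. Stab1 held 1 ETS and 1 SMAD motif, Cd34 held 1 ETS motif, and the Kdr and Tek windows held none of the 3 motifs. Of all 32851 RefSeq windows, 29.5% held the ETS motif, 42.2% the SMAD motif and 9.99% the GATA motif. These matches describe the letters only.

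Lyve1 is a hyaluronan receptor of sinusoidal and lymphatic endothelium. It was more uneven among Tgfbr2+/- livers than among WT livers. Replicates 1 to 6 of Tgfbr2+/- read 0.13, -0.05, -0.27, -0.07, -0.45 and -0.24, and the WT livers read -0.05, -0.02, -0.08 and 0.02. The SD was 0.20 in Tgfbr2+/- livers (n = 6) and 0.04 in WT livers (n = 4), and this difference in spread was not tested. Of the 6 Tgfbr2+/- livers 3 lay below and 1 above the WT range. The mean difference was -0.13 ± 0.10 (SE, 95% interval -0.34 to 0.08, limma adjusted p = 0.920). Tgfbr2+/- replicate 5 was the lowest liver. The difference was -0.07 without it and 0.02 with its sign turned.

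Pecam1 and Cd34 are surface proteins of endothelium in general. Pecam1, or CD31, joins neighbouring endothelial cells, and Cd34 is a sialomucin known for being low in sinusoids and higher in continuous vessels. Pecam1 was among the steadier genes, from -0.04 to 0.20 in Tgfbr2+/- livers with a median of 0.02, and at -0.02, 0.09, -0.01 and 0.03 in WT livers. Its difference was 0.02 ± 0.05 (SE, limma adjusted p = 0.967). The highest liver was the library labelled Tgfbr2+/- replicate 4, and without it the difference was -0.007.

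Cd34 varied most of the 10 genes within groups. Tgfbr2+/- replicates 1 to 6 read -0.38, -0.45, -0.20, 0.10, 0.19 and -0.04, and WT replicates 1 to 4 read 0.49, -0.53, -0.14 and -0.33. The WT livers thus held both the lowest and the highest Cd34 value. The within-group SD was 0.34, at or above that of 97.0% of all genes, beside a median of 0.11 over all genes. The difference was -0.002 ± 0.19 (SE, 95% interval -0.42 to 0.41, limma adjusted p = 0.999). It was 0.20 without WT replicate 1 and -0.14 without WT replicate 2. It was also above 0 without Tgfbr2+/- replicate 1 (0.049), 2 (0.061) or 3 (0.011), so it has no settled sign.

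Oit3 and Dnase1l3 encode secreted proteins of sinusoidal endothelium. Oit3 carries a zona pellucida domain, and Dnase1l3 is a nuclease that degrades DNA in chromatin and is also made by macrophages and dendritic cells. Oit3 ran from -0.32 to 0.05 in Tgfbr2+/- livers with a median of -0.02, the lowest being replicates 5 and 4. Its WT values of 0.00, 0.05, 0.20 and -0.17 overlapped that range. The difference was -0.105 ± 0.09 (SE, limma adjusted p = 0.929), and 0.001 with the sign of Tgfbr2+/- replicate 5 turned. It was -0.045 without WT replicate 3, -0.168 without WT replicate 4 and -0.059 without Tgfbr2+/- replicate 5. Dnase1l3 ran from -0.18 to 0.12 in Tgfbr2+/- livers with a median of 0.06, inside the WT values of 0.26, -0.19, -0.21 and 0.12. Its difference was 0.02 ± 0.10 (SE, limma adjusted p = 0.989).

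**Figure D3:**
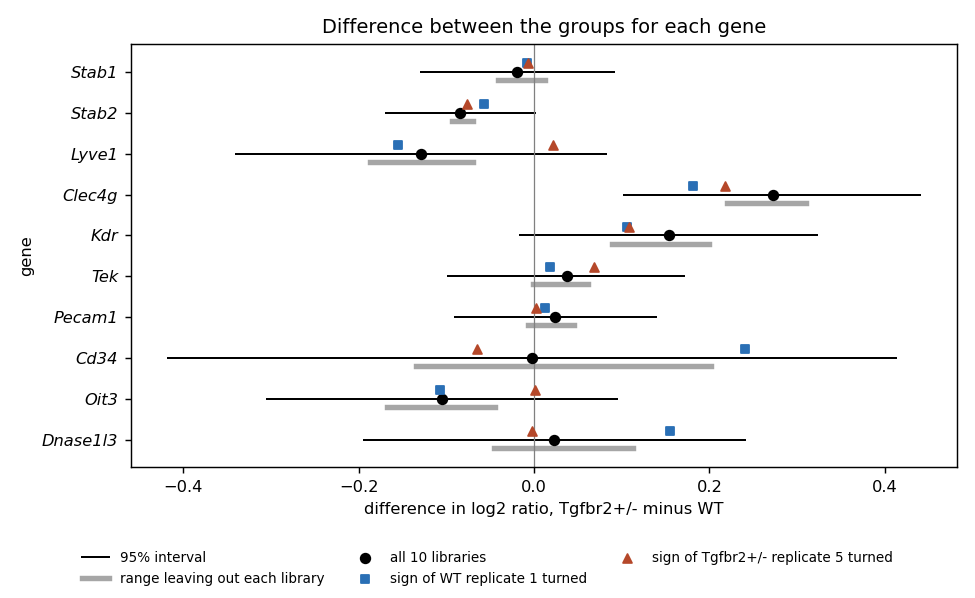
Difference in log2 ratio, Tgfbr2+/- minus WT (horizontal axis), for each of the 10 genes (vertical axis), with its 95% interval, the range when each library is left out in turn (grey bar) and the value with 1 column turned in sign (square or triangle). The interval of Clec4g, 0.10 to 0.44, is the only one of the 10 that does not reach 0.

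Against the WT pool, 0 of the 10 genes passed in either group. In Tgfbr2+/- livers 2 genes, Clec4g above the pool and Lyve1 below it (-0.16 ± 0.06, SE), had an unadjusted p under 0.05. Their limma adjusted p was 0.172 and 0.221, and 18.3% of all genes had such an unadjusted p. In WT livers 0 of the 10 averaged genes did, where 4.14% of all genes did. Stab2 probe 10024412523 taken alone did in WT livers, without passing after adjustment. By adjusted p 2 genes of all passed in Tgfbr2+/- livers, or 0.0122%, and 0.0% in WT livers. These tests leave out the spread of the pool. The mean of the 10 genes in a liver ran from -0.07 to 0.04 over the Tgfbr2+/- livers and from -0.10 to 0.04 over the WT livers, so the groups shared their range.

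No pair of the 10 genes varied together from liver to liver past the adjusted threshold. Over the 45 pairs the Pearson r of log2 ratios across the 10 livers had a median of -0.10, beside 0.00 over all gene pairs, with 20 positive and 25 negative pairs. After Benjamini-Hochberg adjustment over the 45 pairs 0 passed (smallest adjusted p = 0.640), and 1 had an unadjusted p under 0.05. That was Clec4g with Kdr, at r = 0.67 (permutation p = 0.0327, adjusted p = 0.640) and Spearman's rho = 0.76 (permutation p = 0.0150, adjusted p = 0.338). Within the 6 Tgfbr2+/- livers its r was 0.42, and without the 2 livers farthest from the Clec4g median it was 0.53. Clec4g ran opposite to Stab2, with r = -0.63 (permutation p = 0.0518) and rho = -0.83 (permutation p = 0.00486, adjusted p = 0.219). Within the 6 Tgfbr2+/- livers that r was -0.16, and without the 2 livers farthest from the Stab2 median it was -0.77. Clec4g and Tek had r = 0.60 (permutation p = 0.0711), which was 0.77 within the 6 Tgfbr2+/- livers and 0.05 without the 2 livers farthest from the Clec4g median, and so rests on those livers. Cd34 and Dnase1l3 had r = 0.61 (permutation p = 0.0631), with 0.42 within the 6 Tgfbr2+/- livers and 0.18 without the 2 livers farthest from the Cd34 median. Stab1 and Stab2, the related scavenger receptors, had r = 0.21.

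**Figure D4:**
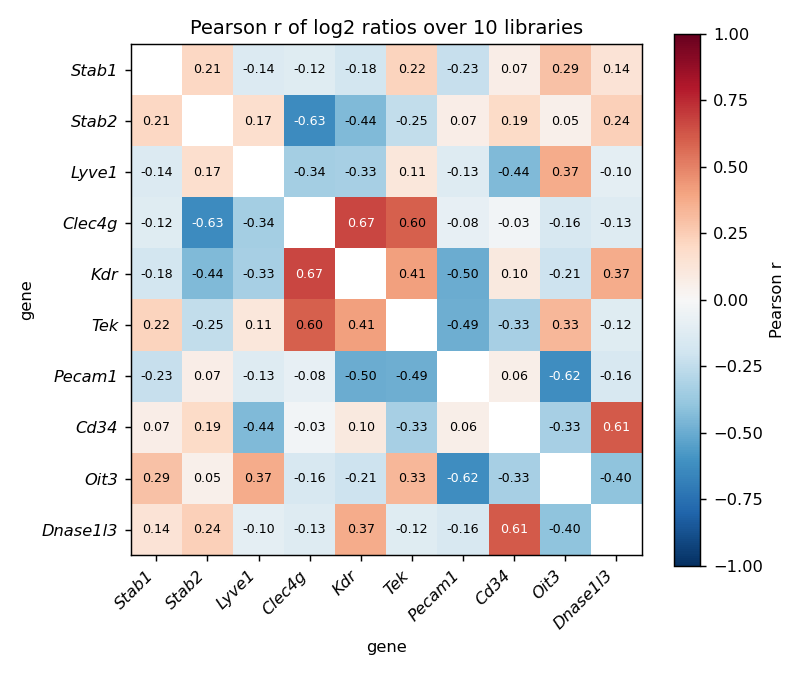
Pearson r of the log2 ratios of each pair among the 10 genes over 10 livers, with genes on both axes and colour for r from -1 to 1. Red and blue squares are mixed, from -0.63 for Clec4g with Stab2 to 0.67 for Clec4g with Kdr.

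The genes closest to the mean of the 10, by Pearson r over the 10 livers, were Zfp617, Exo1, Trim69, Rspo1 and Memo1. Their r ran from 0.91 to 0.93. They are the highest of 16383 genes over 10 points, and that mean itself moved by little.

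None of the other endothelial genes listed passed the adjusted threshold either. Of 25 measured further sinusoidal markers 2 had an unadjusted p under 0.05 and were higher, beside 2.97% of all genes, and 0 were lower, beside 2.57%. Their median difference was 0.03. These were Tfec, a transcription factor (0.19 ± 0.05, SE, limma adjusted p = 0.585), and Fcgr2b, an inhibitory Fc receptor that macrophages also make (0.36 ± 0.11, adjusted p = 0.718). Cd209b, a C-type lectin, was at 0.12 ± 0.08. Cd36 had the lowest difference of the list, -0.355, without an unadjusted p under 0.05. Of 36 general endothelial markers 3 were higher at that level and 0 lower, with a median of 0.01. They were Ecscr (0.18 ± 0.06), the transcription cofactor Lmo2 (0.25 ± 0.08) and the adhesion protein Icam2 (0.24 ± 0.09), with limma adjusted p from 0.718 to 0.796.

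The pathways around Kdr and Tek, and those of the basement membrane, gave 0 genes past the adjusted threshold. Of 29 genes of VEGF, angiopoietin and Notch signalling 0 had an unadjusted p under 0.05, with a median difference of 0.01. The smallest p were those of Pik3r1 (-0.16 ± 0.07, SE), the antagonist ligand Angpt2 (0.12 ± 0.06) and the VEGF receptor Flt1 (-0.14 ± 0.07). Nrp1 had the largest difference of the list, 0.355. Of 16 genes of basement membrane and continuous endothelium 1 was higher and 1 lower at that level, beside 2.97% and 2.57% of all genes. They were Nid1, a basement membrane protein (0.13 ± 0.05), and Edn1, the vasoconstrictor endothelin-1 (-0.25 ± 0.10), and Cldn5, a tight junction protein, was at 0.11 ± 0.07. Of 15 receptors and targets of TGF-beta and BMP known from endothelium 2 were lower at that level, beside 2.57% of all genes. They were Tgfbr2 itself (-0.47 ± 0.12), the targeted gene, and Smad5, a transducer of BMP signals (-0.21 ± 0.05, limma adjusted p = 0.413). The Tgfbr2 differences on its single probes were -0.88 and -0.07, and its being the lower was in part assumed. Acvrl1, an endothelial BMP receptor, was at 0.13 ± 0.06. In these 3 lists the medians were 0.01, 0.04 and 0.00.

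Markers of other liver cells are given beside these values because whole liver was measured. Of 27 Kupffer cell and macrophage markers 19 had an unadjusted p under 0.05 and were higher, beside 2.97% of all genes, and 0 passed the adjusted threshold. The median difference was 0.36, and the list mean ran from 0.00 to 0.22 over Tgfbr2+/- livers and from -0.17 to -0.12 over WT livers. Cd5l (0.67 ± 0.10), Ctss (0.58 ± 0.09) and Vsig4 (0.48 ± 0.08) had the smallest p. In this list 4 genes had a negative difference, namely Marco (-0.169), Slc40a1 (-0.054), Cd163 (-0.053) and Itgam (-0.045). Among 21 scavenger and lectin receptors of other cells 3 were higher at that level, beside 2.97% of all genes. The median of this list was -0.01, with 10 positive and 11 negative differences. The 3 higher genes were Clec4f (0.43 ± 0.08), Clec10a (0.36 ± 0.11) and Msr1 (0.23 ± 0.09), all 3 known from macrophages. Clec4f, Marco, Cd163 and Cd68 are also in the macrophage list, and Marco (-0.169) and Cd163 (-0.053) had negative differences. The part of macrophage or other blood cell RNA was not tested for Clec4g, Fcgr2b or any other gene of the endothelial lists, Tfec, Lmo2 and Icam2 included. Of 12 neutrophil markers 3 were higher at that level, S100a9 (0.79 ± 0.18), S100a8 (0.33 ± 0.10) and Mpo (0.12 ± 0.05), beside 2.97% of all genes. The median of this list was 0.06, and 2 of its genes had a negative difference, with Camp the lowest at -0.135.

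The remaining cell types gave few such genes. Of 16 stellate cell and fibroblast markers 1 was lower, Pdgfra (-0.22 ± 0.09), beside 2.57% of all genes. Ecm1 was at -0.12 ± 0.06 and Lrat at 0.15 ± 0.08. Col1a1 had the largest difference of the list, -0.91, without an unadjusted p under 0.05. Of 12 hepatocyte markers 0 had an unadjusted p under 0.05, and Ass1 was at -0.19 ± 0.12, Apoa1 at -0.14 ± 0.10 and Hnf4a at 0.06 ± 0.05. Nor did any of 15 lymphocyte markers (Cd3e at 0.12 ± 0.06, Cd52 at 0.17 ± 0.10, Cd4 at -0.12 ± 0.07) or 7 biliary markers (Cldn7 at 0.13 ± 0.06, Muc1 at 0.12 ± 0.09, Epcam at 0.05 ± 0.09). Of 10 erythroid and platelet markers 1 was higher, Alas2 (0.15 ± 0.05), beside 2.97% of all genes. Hba-a1 was at -0.14 ± 0.12 and Pf4 at 0.10 ± 0.09. The 5 measured Y-linked genes had a median difference of -0.03, with Sry at -0.05 ± 0.06, Kdm5d at -0.08 ± 0.10 and Uty at 0.04 ± 0.08. Medians of the stellate, hepatocyte, lymphocyte, biliary and erythroid lists lay between -0.01 and 0.05.

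**Figure D5:**
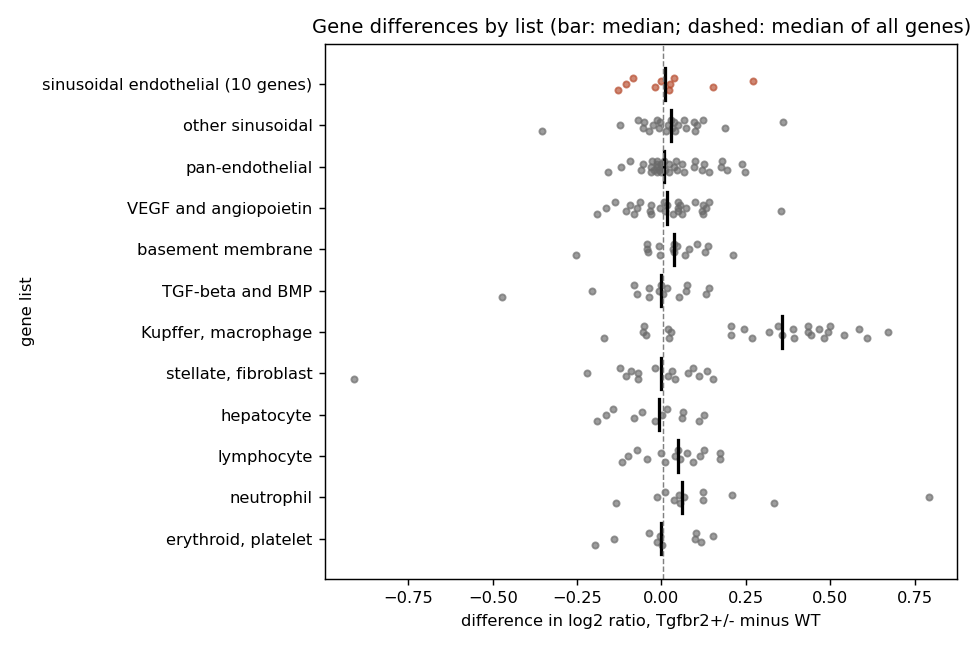
Difference in log2 ratio, Tgfbr2+/- minus WT (horizontal axis), for the genes of 12 lists (vertical axis), with a point for each gene, a bar for the list median and a dashed line for the median of all genes. The 10 sinusoidal endothelial genes and the other endothelial lists centre near 0, and the Kupffer cell and macrophage list has its median at 0.36.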

How the data were processed

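RNA of 10 livers was purified on RNeasy columns with DNase treatment, amplified with an aminoallyl MessageAmp II kit and labelled with Cy3 and Cy5, per the labels' protocols. The authors deposited 1 column per liver of log10 ratios of liver and pool. The log base is inferred from 8 values of size exactly 2, a limit of 100-fold. Dye swaps were part of the profiling. The labels and files used here name no scanner software, background correction, normalization or ratio direction. Column medians were 0.0013 to 0.0047 on the log10 scale. Liver over pool is likely, from the common practice of Cy5 over Cy3 and from Tgfbr2, and every sign rests on it. No intensities were used, so detection of a probe is unknown, and the number of arrays limits the precision.

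Values were multiplied by 3.32 to log2. Of 23438 probes 17726 carry 1 symbol in the platform annotation, 50 several and 5662 are unnamed here. Probes were averaged to 16383 genes and fitted with limma 3.58.1 in R 4.3.3 (lmFit, eBayes, two-sided, Benjamini-Hochberg over all genes). The fit was tested on simulated data. Exact permutation tests cover all 210 ways to divide 10 livers into 6 and 4, and correlation p-values use 100000 permutations (Python 3.11.15, SciPy 1.17.1). The members and lists were chosen with earlier results of these data known. Named genes are the members, Tgfbr2, the 3 genes of smallest p in each other list, and the 5 genes closest to the members' mean. Cd36, Nrp1 and Col1a1 were added for the size of their differences. Alternatives were single probes, array weights, other scalings, trend and robust variance, each library left out, turned signs and a replicate block.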

Additional observations from a re-analysis of the deposited data

Results flagged for a closer look

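Over 30 sets of values (the 10 genes, Tgfbr2 and the single probes of Stab2 and Tgfbr2, in each group) 3 sets held a liver far from the others of its group, and chance gives about 1 such set in 20. The 3 sets involve 2 livers. Stab2 averaged per gene was 0.10 in WT replicate 4, against 0.05 in each of the other WT livers. Tek was 0.05 in WT replicate 4, against -0.04 to -0.03 in the other WT livers. Stab2 probe 10024412523 was -0.21 in Tgfbr2+/- replicate 2, against -0.05 to 0.02 in the other Tgfbr2+/- livers.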

How the results depend on the processing

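Under 20 alternatives 0 of the 10 genes passed the adjusted threshold, the smallest limma adjusted p being 0.316 for Clec4g without Tgfbr2+/- replicate 3. Clec4g ranged from 0.22 to 0.31 and Kdr from 0.09 to 0.20 when each liver was left out. Over all genes 0 passed in 19 alternatives and 10 passed without Tgfbr2+/- replicate 3. The median difference of the 10 ranged from -0.023 (without WT replicate 3) to 0.028 (without Tgfbr2+/- replicate 2). The labels do not say whether the replicate numbers of the titles pair the mice, and this was not settled. The correlation of same-numbered deviations was 0.09, 0.09, 0.30 and 0.01, and 2 of the 4 WT livers correlated best with their own number. With the replicate numbers as a block the median was -0.008 and 0 genes passed. Signs changed for genes near 0 when a liver was left out, with ranges of -0.041 to 0.012 for Stab1, -0.007 to 0.046 for Pecam1, -0.14 to 0.20 for Cd34, -0.046 to 0.113 for Dnase1l3 and -0.001 to 0.061 for Tek. Cd34 was 0.24 with WT replicate 1 turned. Lyve1 was 0.022, Oit3 0.001 and Dnase1l3 -0.002 with Tgfbr2+/- replicate 5 turned. Pecam1 was -0.02 without Tgfbr2+/- replicates 4 and 5 together, an alternative chosen after seeing the data, and Stab2 was 0.022 on probe 10024409050. For these sign changes the cause was not tested.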
